A study of Mus musculus with 66 samples.

Results

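The peaks of class dB are 3621 of the 35266 Nr5a2 peaks that the authors listed from ChIP-seq of mouse embryonic stem cells, and they were chosen by the class entry alone, as all rows where it reads dB. The other classes are coded eB (6398 peaks), nB (2277 peaks) and L (22970 peaks), and no code is defined in the sources used here, so each is used only as a name. The list is headed by the word book and was made from ChIP-seq of wild-type E14Tg2a cells (12 libraries: Nr5a2 and input, each in interphase and mitosis, 3 per group). Expression came from 54 RNA-seq libraries of an E14Tg2a derivative of 129/Ola genotype in which auxin degrades both Esrrb and Nr5a2. These made 18 groups of 3: without and with auxin in asynchronous cells, in cells arrested in mitosis, and at 7 times from 20 to 120 minutes after release from the arrest (every 10 minutes up to 60, then 90 and 120). The arm was read from the sample titles (minus or plus), because the treatment entry reads control throughout. No cells with intact receptors received auxin, and the receptors were degraded jointly, so effects of auxin, of Esrrb loss and of Nr5a2 loss cannot be told apart. RNA levels are the authors' mean per group in TPM, which corrects for gene length and for the size of the library, and carry no spread, so no gene has a test and no value below has a replicate error. Column totals over the genes of the table ranged from 17155 to 49059 TPM, so the columns differ in total and ratios between stages include that difference. These totals are also far below that of a complete TPM column, so the table holds only a part of the signal. Why was not tested. Levels below, and the limit of 1 TPM, hold on the scale of this table only. The depth per library is unknown, and fewer cells with a transcript and less transcript per cell cannot be told apart in these bulk samples.

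Nr5a2 and Esrrb are nuclear receptors that work without a known hormone in stem cells and bind DNA as monomers, at a half-site extended by a few bases upstream. Most transcription factors leave chromosomes when a cell divides, while some stay on part of their sites, which is known as mitotic bookmarking. Esrrb and Nr5a2 belong to the network that keeps mouse stem cells in the naive pluripotent state, together with Nanog, Klf4, Tfcp2l1 and Pou5f1. The culture carried most markers of that state, at unlike levels. Pou5f1 ranged from 5.97 to 19.9 TPM and Zfp42, a naive state marker, from 15.1 to 61.3 TPM over the 18 groups. Lower ranges were found for Nanog (1.25 to 7.02 TPM), Esrrb (1.47 to 6.74 TPM), Tfcp2l1 (0.854 to 3.28 TPM) and Klf4 (0.327 to 7.36 TPM). Sox2 was not in the expression table. Most markers listed for other cells stayed under 1 TPM, such as the fibroblast gene Thy1 (up to 0.22 TPM) and the endoderm gene Gata4 (up to 0.18 TPM). In the fibroblast list 2 of 6 reached 1 TPM, Fn1 (3.31 to 15.1 TPM) and Vim (up to 4.22 TPM), in the primitive endoderm list 3 of 12, led by Lamc1 (up to 8.27 TPM), and in the trophectoderm list 3 of 9, led by Tfap2c (up to 4.16 TPM). Their part in the results was not tested.

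Promoter windows show what lies under dB peaks at gene starts. RefSeq windows of GRCm38.p6, from 250 bases before to 50 after a gene start, overlapped a dB peak in 361 of 32851 cases. The extended half-site, searched as TCAAGGTCA or TCAAGGCCA on both strands, was present in 15 of these 361 windows (4.16%, 95% Wilson interval 2.53% to 6.74%) and in 331 of all windows (1.01%). Windows over nB peaks held it in 8% (8 of 100, interval 4.11% to 15.0%), those over eB peaks in 1.95% and those over L peaks in 1.89%. The shorter AAGGTCA, which is contained in TCAAGGTCA, was in 10.5% of dB windows (38 of 361) and in 4.72% of all windows, while the eB windows reached 13.6%. Windows over dB peaks were also richer in G and C, with a median of 59.7% against 52.7% over all windows, and the part of base composition in these shares was not tested. A match is a description of the letters and not a measured site. Of the 15 genes with such a window 9 were in the expression table, and 3 of them, Sgk1, Nfkbid and Tmem191c, were called lower with auxin in the authors' deposited table, against 7.26% of all its genes and 16.5% of those within 10 kb of a dB peak. The 250 bases before the start follow for these 3, for Eif4e, whose window holds the motif at 2 places, for Eno1, whose window holds AAGGTCA alone, and for Upp1, the gene near a dB peak with the lowest RNA difference, whose window holds none of these letters. All 250 bases of each lie inside a dB peak, and capitals mark the motif, which reads TGACCTTGA where it is on the other strand.
Sgk1 (chr10:21978422-21978671, plus strand): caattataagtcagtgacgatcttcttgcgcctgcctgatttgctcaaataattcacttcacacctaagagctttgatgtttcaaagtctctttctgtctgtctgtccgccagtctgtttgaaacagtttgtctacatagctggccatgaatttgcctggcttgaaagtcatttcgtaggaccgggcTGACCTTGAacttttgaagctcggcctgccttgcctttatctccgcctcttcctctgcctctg
Nfkbid (chr7:30421481-30421730, plus strand): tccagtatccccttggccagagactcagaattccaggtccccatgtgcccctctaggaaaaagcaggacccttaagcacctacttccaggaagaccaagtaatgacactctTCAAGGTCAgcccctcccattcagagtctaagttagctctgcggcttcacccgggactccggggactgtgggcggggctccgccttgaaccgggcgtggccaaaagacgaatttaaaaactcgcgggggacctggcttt
Tmem191c (chr16:17276050-17276299, plus strand): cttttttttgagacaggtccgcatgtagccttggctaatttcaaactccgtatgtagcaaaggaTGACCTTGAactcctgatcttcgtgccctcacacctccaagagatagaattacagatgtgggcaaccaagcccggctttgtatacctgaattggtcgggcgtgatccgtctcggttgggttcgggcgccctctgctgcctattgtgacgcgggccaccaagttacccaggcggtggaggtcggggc
Eif4e (chr3:138525941-138526190, plus strand): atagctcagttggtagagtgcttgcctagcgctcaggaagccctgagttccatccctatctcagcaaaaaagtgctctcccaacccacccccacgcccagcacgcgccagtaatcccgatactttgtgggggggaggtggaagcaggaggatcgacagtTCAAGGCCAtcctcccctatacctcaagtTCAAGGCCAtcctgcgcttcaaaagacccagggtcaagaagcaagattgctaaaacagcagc
Eno1 (chr4:150236458-150236707, plus strand): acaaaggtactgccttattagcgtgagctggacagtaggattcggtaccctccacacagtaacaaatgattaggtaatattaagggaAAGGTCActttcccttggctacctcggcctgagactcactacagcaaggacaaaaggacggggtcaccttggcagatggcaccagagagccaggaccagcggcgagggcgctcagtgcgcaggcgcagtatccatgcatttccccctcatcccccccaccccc
Upp1 (chr11:9117758-9118007, plus strand): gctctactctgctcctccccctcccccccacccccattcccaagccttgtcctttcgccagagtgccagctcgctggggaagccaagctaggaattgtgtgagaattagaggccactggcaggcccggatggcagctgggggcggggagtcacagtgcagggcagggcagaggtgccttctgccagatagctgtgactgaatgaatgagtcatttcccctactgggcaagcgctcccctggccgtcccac

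The motif lay 63 bases before the start in Sgk1, a kinase of salt and growth signalling, 139 bases in Nfkbid, an inhibitor of NF-kappa-B signalling, and 186 bases in Tmem191c. Nfkbid stood at 0.925 TPM in asynchronous cells without auxin and 0.697 TPM with auxin, and at 90 minutes after release at 2.10 and 1.55 TPM. Sgk1 stood at 0.869 and 0.619 TPM in asynchronous cells, and at 1.24 and 0.938 TPM at 60 minutes. It was lower with auxin at 7 of 7 times after release, Nfkbid at 6 and Tmem191c at 5. Eif4e, the cap-binding factor of translation, had the motif at 2 places and was not called in the authors' deposited table. Its level was 5.79 TPM without and 5.81 TPM with auxin in asynchronous cells, and its mean log2 difference after release was 0.07.

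Peaks of class dB were the widest of the 4 classes. Their median width was 901 bp (95% interval of the median 885 to 917 bp, quartiles 692 and 1220 bp), against 765 bp for eB, 663 bp for nB and 540 bp for L. They ranged from 212 to 4582 bp. Of the dB peaks 40.3% were at least 1000 bp wide and 4.78% at least 2000 bp, shares that were 8.28% and 0.144% in class L. How the class was assigned is not stated, and the same ChIP-seq may underlie class and width, so the widths are a description with no test. When all peaks were ordered by width and split into 10 equal groups, dB peaks made up 0.454% of the narrowest group (16 of 3527) and 30.8% of the widest (1087 of 3527). The dB share was larger in each wider group than in the one before. The same held for the eB share, which went from 3.35% in the narrowest group to 30.0% in the widest.

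**Figure D1:**
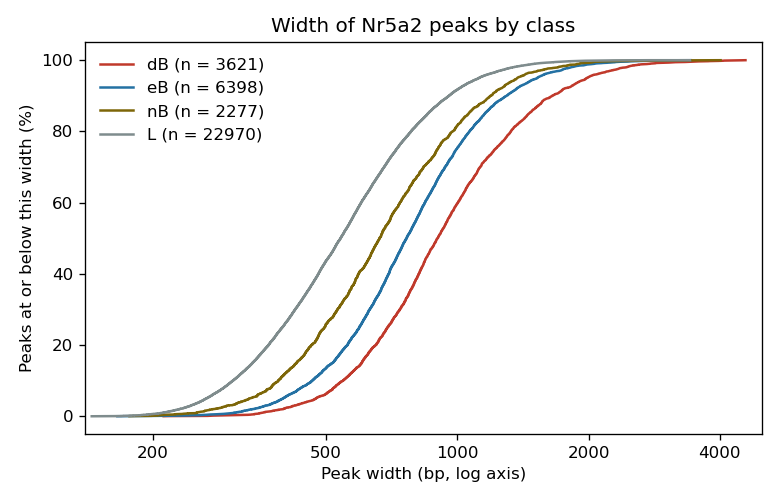
Cumulative share of peaks (vertical axis, %) against peak width (horizontal axis, bp, log scale), 1 line per class. The dB line lies to the right of the others, with its median at 901 bp against 540 bp for class L.

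The widest dB peak, at chr14:60944098-60948680, lies more than 10 kb from any protein-coding gene span. The next are a peak of 4476 bp inside Pitpnc1 (chr11:107352479-107356955), a lipid transfer protein gene, and peaks of 4284 bp at chr2:30756985-30761269, 4183 bp at chr10:62895176-62899359 and 4093 bp at chr19:25485859-25489952. The chromosome 10 peak lies within 10 kb of Tet1, which oxidises methylated cytosine. Among the 5 narrowest, from 212 to 270 bp, were peaks inside Sdsl, Chd9 and Stard9, and the one in Chd9 lay 285 bp from another dB peak. Extreme widths of both kinds therefore occurred inside genes and away from them.

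Few dB peaks lay close to another dB peak. The median gap from a dB peak to the nearest peak of any class was 8598 bp, and to the nearest other dB peak 102018 bp. The nearest peak was of class L for 57.9% of dB peaks, of class eB for 19.2% and of class dB for 14.5%. A dB peak was the nearest peak for 11.4% of eB, 12.7% of nB and 9.19% of L peaks. Gaps within a class go with its size: in nB, the smallest class, the median was 113067 bp. A gap under 1 kb to some other peak was found for 625 dB peaks (17.3%). Linked at up to 10 kb, 496 dB peaks (13.7%) formed 230 runs of 2 or more and 28 runs of 3 or more. In class L, the largest class, 40.2% were in such runs, in eB 14.8% and in the smaller class nB 15.7%. The dB share depends on the linking distance, at 9.11% for 5 kb and 20.1% for 20 kb.

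The longest run had 6 dB peaks over 31269 bp at chr14:60932741-60964010 and included the widest peak. It reaches into Tnfrsf19, a receptor gene of the tumour necrosis factor family with 2 of these peaks within 10 kb, whose RNA was near the floor of the table, at a mean of 0.085 TPM without and 0.086 TPM with auxin after release. Runs of 5 lay over Cabp1, a neuronal calcium-binding protein gene, and next to Spag9, a scaffold of JNK signalling (1.90 and 1.95 TPM). Dense dB peaks were thus also found beside genes that stood low in the expression table or differed little. Of the 32 genes of the expression table within 10 kb of a run of 3 or more, 17 were called lower and 1, Tmem101, higher in the authors' deposited table. Over all its genes 7.26% were called lower and 6.74% higher. The genes called lower at these runs, chosen here after their values were seen, included the glucose carrier Slc2a3 (mean after release 3.31 TPM without and 2.71 TPM with auxin), the nucleoside carrier Slc29a1 (4.44 and 3.45 TPM) and Ubtf, a factor of ribosomal RNA transcription (6.32 and 5.04 TPM). Camk2n1, an inhibitor of the kinase CaMKII, had 3 dB peaks and stood at 0.379 and 0.162 TPM without a call.

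Chromosome 11 had the highest density of dB peaks, 440 peaks or 3.71 per Mb, and the X chromosome the lowest, 29 peaks or 0.179 per Mb. Of the peaks on chromosome 11, 14.4% were dB (interval 13.2% to 15.7%), followed by 12.1% on chromosome 19 and 11.5% on chromosome 4. On the X chromosome 5.68% were dB (interval 3.98% to 8.03%), and the lowest autosome was chromosome 14 with 7.94%. Chromosome 11 was also dense in peaks of all classes, with 25.8 per Mb, and carried 1172 placed genes of the table. A dB peak lay within 10 kb of 25.4% of its genes, compared with 3.86% of the 492 placed genes on the X chromosome. Runs of 3 or more were most numerous on chromosomes 4 and 11, with 6 each.

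**Figure D2:**
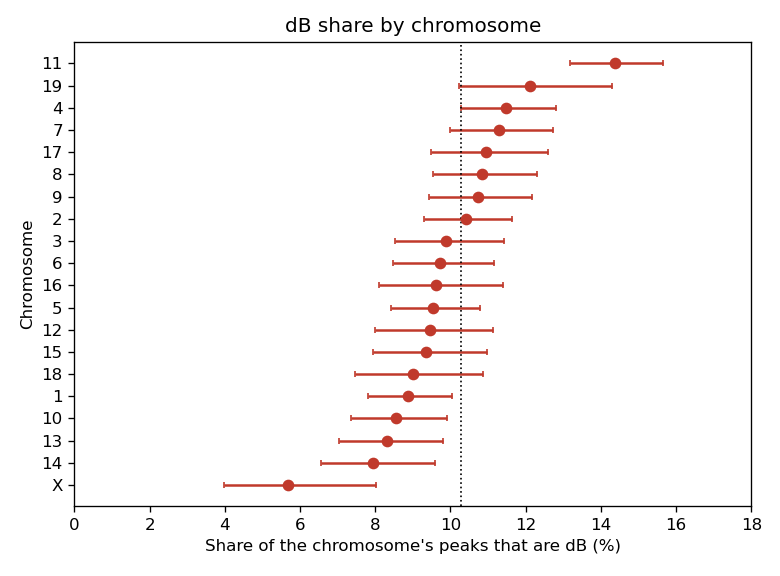
Share of each chromosome's peaks that are dB (horizontal axis, %), 1 point per chromosome (vertical axis, ordered by the share) with 95% Wilson intervals for counting error. The dotted line is the share over all peaks, and chromosome 11 at 14.4% and X at 5.68% are the ends of the order.

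Most dB peaks were in or beside genes of the annotation, noncoding ones included. Of the 3621, 2147 (59.3%) overlapped a gene span, 913 (25.2%) lay outside but within 10 kb of one, and 561 (15.5%) were farther away. For class L these shares were 60.2%, 20.3% and 19.5%. The annotation used here gives gene spans and starts, so exons, introns and untranslated regions could not be separated. Gene starts were those of the RefSeq promoter windows used here, which cover 11065 of the 13952 placed genes of the table. Around these listed starts dB peak centres were fewer at the start itself than to either side. In bins of 250 bp, 108 centres lay 500 to 750 bp upstream and 63 lay 500 to 750 bp downstream. The bins directly before and after the start held 24 and 28. For eB the bins next to the start held 116 and 120 centres, against 140 and 153 in the bins at 500 to 750 bp. Starts not listed are not counted here, and wide peaks can cover a start without being centred on it.

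**Figure D3:**
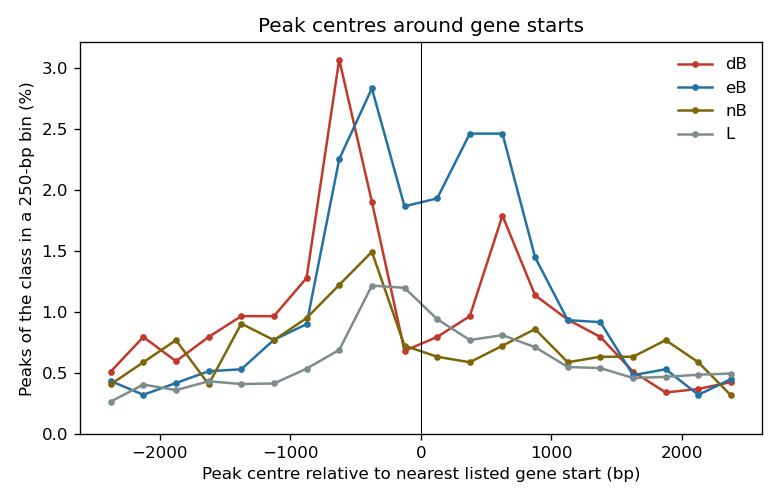
Share of the peaks of each class (vertical axis, %) whose centre falls in each 250-bp bin around the nearest listed gene start (horizontal axis, bp; negative is upstream). The dB line has 1 maximum on each side of the start, at 500 to 750 bp, and a low between them.

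The expression data come from other cells than the peaks and ask which genes near dB peaks differed when the receptors were degraded. A gene was counted as near when a dB peak overlapped its span or lay within 10 kb. This held for 2475 of 13952 placed genes (17.7%). Of these, 409 (16.5%, interval 15.1% to 18.04%) were called lower and 131 (5.29%) higher in the authors' deposited table. Among the 11477 genes without a dB peak the shares were 5.26% and 7.05%, and among the 4118 with no peak of any class 1.97% and 8.38%. Among genes of at least 1 TPM, 21.0% of the 1716 near a dB peak were called lower and 6.29% higher, against 9.46% and 8.52% of all 8999. The sources used here do not give the test behind the calls, and intervals cover counting error only. Genes near the other classes, which overlap this set, were called lower in 12.7% (eB), 15.0% (nB) and 10.4% (L) of cases.

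The share called lower in the authors' deposited table was larger with more dB peaks. It was 13.9% of 2044 genes with 1 dB peak, 25.6% of 359 with 2, 41.7% of 60 with 3 and 58.3% of 12 with 4 or more. With the last groups joined it was 44.4% of 72 genes. The share called higher stayed between 3.33% and 8.33% in these groups. Genes with more dB peaks were also longer, with a median span of 29719 bp at 1 peak and 68532 bp at 3. Within 5 groups of like span the share called lower was 14.7% to 19.4% with a dB peak and 4.43% to 6.11% without. A like order held for eB, from 10.9% of genes with 1 peak to 31.0% with 4 or more, so the order is not shown to be particular to dB.

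**Figure D4:**
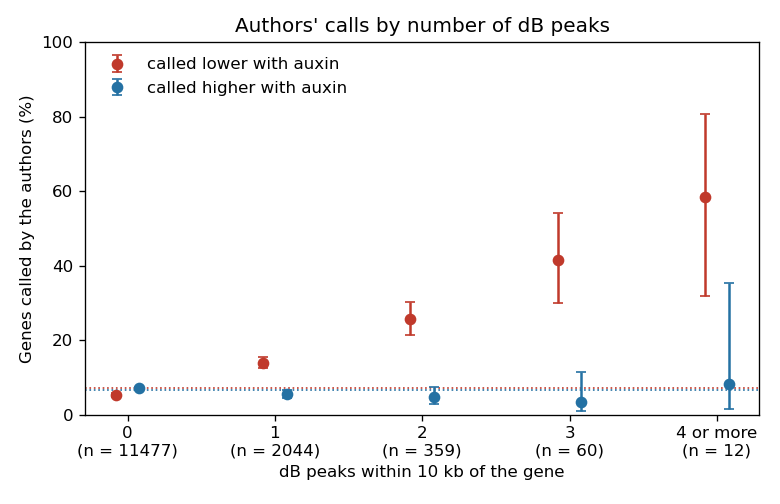
Share of genes called lower (red) or higher (blue) with auxin in the authors' deposited table (vertical axis, %) by the number of dB peaks within 10 kb (horizontal axis), with 95% Wilson intervals. Dotted lines are the shares over all placed genes; the red points go from 5.26% at 0 peaks to 58.3% at 4 or more, a group of 12 genes.

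Peaks of other classes lay beside most of these genes. The 1971 genes with a dB peak and a peak of another class were called lower in 18.8% of cases in the authors' deposited table. For the 504 genes with dB peaks alone the share was 7.54% (interval 5.54% to 10.2%), next to the 7.26% of the whole table, and 7.74% were called higher. Among genes with a single peak in all, 7.24% of 456 were called lower where it was dB, 4.18% of 885 where it was eB, 2.99% of 268 where it was nB and 3.07% of 2149 where it was L. The dB interval (5.20% to 9.99%) overlaps those of eB and nB but not that of L (2.42% to 3.89%). The share called higher was also largest where the peak was dB, at 7.89%, against 4.52% (eB), 5.97% (nB) and 6.84% (L). At 4 peaks in all the shares were 20.1% with and 12.3% without a dB peak, and at 6 peaks 26.0% and 17.8%. The intervals were separate at 4 peaks (16.1% to 24.9% against 9.70% to 15.4%). They overlapped at 6 peaks (19.1% to 34.2% against 12.7% to 24.2%). At 2, 3 and 5 peaks in all the share was also larger with a dB peak, with overlapping intervals. The share also differed with peak width. For genes with exactly 1 dB peak the share called lower went from 8.22% where it was 270 to 699 bp wide to 23.5% where it was 1194 to 3977 bp. Genes with exactly 1 eB or exactly 1 nB peak in that widest range gave 21.2% and 24.1%. Their intervals overlap that of dB, so no difference between these classes is shown there. Genes with exactly 1 L peak of that width gave 10.9% of 92 genes (interval 6.01% to 18.9%), below the interval of dB (20.0% to 27.3%). Genes in these width groups could also have peaks of other classes, and the part of those was not tested. The groupings by number of peaks in all and by width were chosen after the calls were seen.

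Distance from the gene start was ordered in a like way. Of 333 genes with the nearest dB peak centred within 1 kb of a listed start 17.4% were called lower in the authors' deposited table, and of 756 genes at 1 to 10 kb 21.6%. The intervals of these shares overlap. Beyond them the share was 9.21% at 10 to 50 kb, 5.96% at 50 to 100 kb and 4.34% farther away. The share called higher went the other way, from 3.60% within 1 kb to 8.35% beyond 100 kb. The other classes differed between these ends in the same directions, so this is not shown to be particular to dB. At these ends the share called lower was 15.6% and 3.72% (eB), 12.6% and 5.18% (nB) and 14.9% and 2.54% (L). The share called higher was 3.81% and 9.28% (eB), 3.88% and 7.89% (nB) and 6.09% and 10.03% (L). A dB peak inside the span (17.2% called lower) and one only beside it (15.6%) gave shares with overlapping intervals.

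Among genes near dB peaks, Upp1, which splits uridine and feeds its sugar into central metabolism, had the lowest difference with auxin after release. Its single peak of any class was a dB peak of 3977 bp at chr11:9114961-9118938, which covers the gene start. Without auxin Upp1 stood at 5.74 TPM in asynchronous cells, 0.353 TPM in mitosis, and then at 0.536, 0.482, 0.890, 2.13, 4.32, 6.39 and 5.33 TPM from 20 to 120 minutes. With auxin it stood at 2.59 TPM, 0.188 TPM, and then 0.182, 0.230, 0.418, 0.973, 1.64, 2.19 and 1.48 TPM. Every value with auxin was below its counterpart, and the gap on the log2(TPM + 1) scale widened from -0.19 in mitosis to -1.35 at 120 minutes, with a mean of -0.76 over the release times. That scale understates differences of low genes.

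Metabolic genes held further places at this end, and those below belong to a list drawn up with results of these data known. Fabp3, a fatty acid carrier of the cytoplasm, has a dB peak of 1979 bp over its promoter at chr4:130306602-130308581 and a second one of 971 bp. Without and with auxin it stood at 2.47 and 0.637 TPM in asynchronous cells, at 0.732 and 0.458 TPM in mitosis, and at its highest, 90 minutes, at 10.7 and 5.25 TPM. Ldhb, the lactate dehydrogenase form common in oxidative tissue, has 1 dB peak of 1764 bp across its start (chr6:142506876-142508640). It stood at 3.68 and 0.962 TPM in asynchronous cells, 1.36 and 0.782 TPM in mitosis and 7.94 and 3.60 TPM at 60 minutes. Both genes were lower with auxin at 7 of 7 release times, with mean log2 differences of -0.64 and -0.61, and their asynchronous differences were larger, at -1.09 and -1.25.

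Members of the naive pluripotency list were also at or near this end. That list was drawn up with results of these data known, so their place here is no independent evidence. Jam2, second lowest with a mean difference of -0.72, is an adhesion protein gene with 5 dB peaks and stood at 3.57 and 2.03 TPM in mitosis without and with auxin and at 7.57 and 2.63 TPM at 120 minutes. Tfcp2l1, a naive state transcription factor with a dB peak of 2469 bp at its promoter, stood at 2.05 and 1.23 TPM in mitosis, 3.28 and 1.78 TPM at 60 minutes and 2.45 and 0.854 TPM at 120 minutes. Its arms were thus apart already in mitosis (-0.45). Utf1, a chromatin protein of stem cells with 1 dB peak beside it, was lower with auxin in mitosis (3.29 and 1.49 TPM) and after release but higher in asynchronous cells (7.67 and 8.95 TPM). Nanog, outside the 10 lowest with a mean difference of -0.43, has 1 dB peak of 1089 bp upstream and went from 3.35 and 2.51 TPM in mitosis to 7.02 and 4.35 TPM at 60 minutes.

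The remaining genes among the 10 lowest by the rule were Zc3h12a, an RNase that limits inflammatory transcripts, Lrrc34, Nid2, a basement membrane protein gene, and Igfbp2, a carrier of insulin-like growth factors. At 90 minutes Zc3h12a had 5.15 TPM without and 3.42 TPM with auxin, Lrrc34 at 2.01 and 0.744 TPM, Nid2 at 7.50 and 4.66 TPM and Igfbp2 at 6.18 and 3.49 TPM. The dB peaks at Lrrc34 (2606 bp) and Igfbp2 (2449 bp) overlap their promoter windows, while those at Zc3h12a and Nid2 lie outside the gene span. All 10 genes of this end were called lower in the authors' deposited table and had the same sign at all 7 release times, which the rule required. Of the 1716 genes of at least 1 TPM near a dB peak, 181 (10.5%) met these conditions on the low side and 32 (1.86%) on the high side, against 348 (3.87%) and 182 (2.02%) of all 8999.

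**Figure D5:**
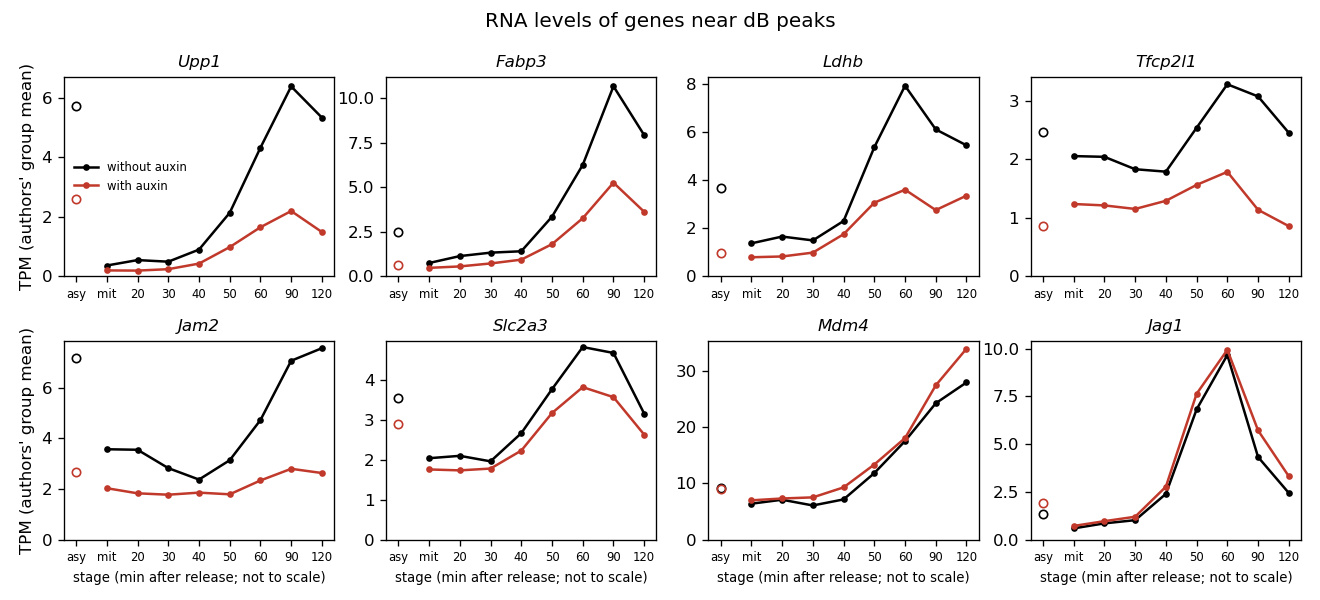
Authors' mean TPM (vertical axis) without auxin (black) and with auxin (red) for 8 genes near dB peaks, in asynchronous cells (asy, open circle), in mitosis (mit) and from 20 to 120 minutes after release (horizontal axis, stages evenly spaced and not to time scale). The red points lie below the black in Upp1, Fabp3, Ldhb, Tfcp2l1, Jam2 and Slc2a3, and above them after release in Mdm4 and Jag1.

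The high end had smaller differences. Cox18, needed to insert a respiratory chain subunit into the mitochondrial membrane, led it at 3.60 TPM without and 4.49 TPM with auxin at 120 minutes, with a mean difference of 0.20. Mdm4, an inhibitor of p53 with 2 dB peaks, stood at 27.9 and 33.9 TPM at 120 minutes but at 9.13 and 9.08 TPM in asynchronous cells. Jag1, a Notch ligand with 1 dB peak, stood at 9.66 and 9.94 TPM at 60 minutes, 4.32 and 5.72 TPM at 90 minutes and 1.34 and 1.94 TPM in asynchronous cells. Nufip2, Sulf1, a heparan sulphate editor, the nuclear noncoding RNA Neat1, Sub1, Bmt2, Hnrnph2 and Oat, a mitochondrial aminotransferase, had mean differences from 0.18 down to 0.14. All 10 were called higher in the authors' deposited table and were higher at all 7 times, again by the rule. Hnrnph2 has close paralogues, so its value is uncertain.

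Naive pluripotency genes often had dB peaks. Of the 44 members with values 23 (52.3%) had one within 10 kb, against 17.7% of all placed genes. All of the 23 except Rif1 also had a peak of another class within 10 kb. Shares near the other classes were not counted for this list or the lists below, so none is shown to be particular to dB. Of these 23, 19 were called lower and 0 higher in the authors' deposited table, where 7.26% and 6.74% of all genes were. Of the 21 members without a dB peak 14 were called lower and 2 higher, so the calls were common with and without one. Median differences after release were -0.18 over the 22 members of at least 1 TPM with a dB peak and -0.24 over the 20 without, against 0.016 over all genes. Because the list was drawn up with results of these data known, its direction is no independent evidence. Members with values between the extremes included the Nodal co-receptor gene Tdgf1 (16.4 and 10.8 TPM at 120 minutes), Mybl2, a cell cycle transcription factor (28.4 and 19.4 TPM), and Klf4 (1.83 and 0.873 TPM). Pou5f1, with a dB peak of 2425 bp over its promoter, stood at 19.9 and 17.0 TPM at 60 minutes and at 9.94 and 9.72 TPM in asynchronous cells. Without a call were Socs3, Dppa2, Rif1 and Stat3.

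The receptors themselves differed in their peaks. Esrrb had 3 dB peaks within 10 kb and Nr5a2 had 0, with 1 eB and 4 L peaks. Esrrb had 3.86 TPM without and 2.53 TPM with auxin in asynchronous cells and at 6.64 and 5.94 TPM at 60 minutes, and Nr5a2 at 3.87 and 3.40 TPM and at 4.85 and 3.80 TPM. These are RNA levels and do not measure the degraded proteins. Of 21 nuclear receptor and cofactor genes 9 had a dB peak, and 3 of these, Esrrb, the retinoic acid receptor gene Rara and the coactivator gene Ncoa3, were called lower in the authors' deposited table, as were 3 of the 12 without one and 7.26% of all genes. Rara stood at 5.89 and 4.75 TPM and Ncoa3 at 11.8 and 9.97 TPM at 60 minutes. Thra, a thyroid hormone receptor gene (1.03 and 0.898 TPM), had dB peaks and no call.

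Energy metabolism had 10 of 21 members with a dB peak, of which 6 were called lower and 0 higher in the authors' deposited table, as were 6 of the 11 members without one. Of all genes 17.7% had a dB peak and 7.26% were called lower. Besides Fabp3 and Ldhb these were Cox5a, a subunit of cytochrome oxidase (9.22 TPM without and 7.80 TPM with auxin at 60 minutes), Slc2a3 (4.83 and 3.82 TPM), Idh3a of the citrate cycle (8.97 and 7.53 TPM) and the hexokinase gene Hk2 (12.4 and 11.2 TPM). Aldoa, Eno1, Uqcrc1 and Sdha had no call, and in each a dB peak overlaps the promoter window. Eno1, a glycolytic enzyme gene with close copies whose value is therefore uncertain, stood at 24.4 and 24.1 TPM at 60 minutes. Sdha, of the citrate cycle, stood at 6.29 and 5.91 TPM.

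The other lists had fewer members near dB peaks, and their counts stand against 17.7% of all genes with a dB peak and 7.26% called lower. In the formative and primed list 5 of 21 had one, and Spry4, Etv5 and Etv4, which answer FGF signalling, were called lower in the authors' deposited table, as were 3 of the 16 without one. At 120 minutes Spry4 was at 19.2 and 13.7 TPM, Etv5 at 12.7 and 9.94 TPM and Etv4 at 4.74 and 3.98 TPM. In the mitotic list 4 of 20 had a dB peak, and Bub1b, of the spindle checkpoint, and Ube2c, which marks mitotic cyclins for degradation, were called lower, as was 1 of the 16 without one. In the p53 list 5 of 15 had one, with Mdm4 called higher and 0 called lower. Of the 10 without one 4 were called higher and 0 lower, where 6.74% of all genes were called higher. Of 14 immediate early genes 0 had a dB peak within 10 kb, and 0 were called lower or higher. Among the 10 of these of at least 1 TPM 7 were below 0 with auxin, and the share over all genes was not counted. Their median difference was -0.012, against 0.016 over all genes. Primitive endoderm (2 of 12), trophectoderm (2 of 9) and fibroblast markers (1 of 6) added Gata6, Hnf4a, Cdx2, Tfap2a and Fn1. Fn1, a matrix protein gene, stood at 15.1 and 12.3 TPM at 90 minutes and was called lower, and the first 4 stayed under 1 TPM.

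Among genes of at least 1 TPM, those with the most dB peaks were Jam2 and Msi2 with 5 each, then Jade2, Gpatch8, Gtf2ird1, Pitpnc1 and Dip2c with 4. Ties at 3, shared by 33 genes of at least 1 TPM, were settled by the shortest span, a choice made after the values were seen, which adds Mylpf and Zfp740 among others. Their responses were mixed. Msi2, an RNA-binding protein gene of stem cells spanning 23 L peaks as well, was at 5.14 and 4.08 TPM at 120 minutes. Jade2, of a histone acetyltransferase complex, stood at 2.33 and 1.85 TPM at 60 minutes. Pitpnc1 was called lower in the authors' deposited table, stood at 3.20 and 2.40 TPM in asynchronous cells, and yet had a mean difference after release of 0.03. Gpatch8 (7.61 and 7.05 TPM at 60 minutes) was not called, and Dip2c (0.933 and 1.01 TPM at 120 minutes) was called higher.

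Over all 1716 genes of at least 1 TPM near a dB peak, the auxin difference moved with the stage as it did for other genes. The share lower with auxin was 78.6% in asynchronous cells, 50.8% in mitosis, 74.4% at 20 minutes, 36.4% at 30, 35.1% at 40, 58.1% at 50, 85.8% at 60, 45.6% at 90 and 43.4% at 120 minutes. For all 8999 genes of that level the shares were 71.0%, 46.2%, 69.0%, 29.6%, 28.3%, 48.9%, 80.5%, 36.5% and 33.8%. At each of the 9 stages the share near dB peaks was the higher one, and the genes near dB peaks are part of both. The median difference over the release times was -0.00094 near dB peaks and 0.016 over all genes, and in asynchronous cells -0.07 and -0.04. The sign of the first value turned under several settings, and with each stage centred on all genes it was -0.016. Genes lower at all 7 times made up 12.8% of those near dB peaks and 5.33% of all, and genes higher at all 7 times 3.38% and 3.88%. Near the other classes, which overlap this set, 9.94% (eB), 9.90% (nB) and 7.89% (L) were lower at all 7 times. Their median differences over the release times were -0.00016, 0.0039 and 0.0088, and in asynchronous cells -0.057, -0.059 and -0.048. For 40 genes with 3 or more dB peaks the median difference was -0.18 in asynchronous cells, -0.06 in mitosis and -0.12 at 60 minutes.

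The return of RNA after mitosis in cells that kept the receptors was close to that of other genes over the whole set and smaller with more dB peaks. The level relative to mitosis had a median log2 ratio near dB peaks of 0.03 at 20 minutes, -0.02 at 30, 0.11 at 40, 0.59 at 50, 0.96 at 60, 0.91 at 90 and 0.78 at 120 minutes. Over all genes it was 0.14 at 40 minutes and 1.01 at 60 minutes, a shift shared by the whole table that quantile normalization brings to 0.018. Relative to it the median near dB peaks was slightly lower, at -0.07 after that normalization. At least 2-fold above mitosis at 60 minutes were 832 of the 1716 genes (48.5%), against 50.8% of all. The median ratio at 60 minutes was 1.02 without a dB peak, 0.81 for 298 genes with 2 or more and 0.56 for 40 genes with 3 or more, and 24.2% of 33 genes with exactly 3 were at least 2-fold above mitosis. The ratio also fell with number in the other classes, so this is not shown to be particular to dB. From 1 to 3 peaks the median went from 1.01 to 0.64 for eB, 0.97 to 0.69 for nB and 1.05 to 0.80 for L. Genes with more dB peaks were longer, as given above. From the shortest to the longest of 5 span groups the median went from 1.36 to 0.43 with a dB peak and 1.22 to 0.45 without. The part of span was not tested. Genes near dB peaks were highest at 60 minutes in 41.4% of cases, and those without in 46.6%, and at 90 minutes for 27.5% and 22.7%. Among the named genes Oat had 0.219 TPM in mitosis and 7.46 TPM at 50 minutes, Jag1 0.591 and 6.82 TPM, and Mycn, a growth regulator with 1 dB peak, 2.50 and 21.2 TPM. Sulf1 went the other way, with 2.34 TPM in mitosis and 1.42 TPM at 60 minutes.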

How the data were processed

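RNA-seq and ChIP-seq of mouse stem cells were used as deposited. The authors deposited TPM with 1 column per group: all 246530 values above 0 become whole at 9 decimals when multiplied by 3 (within 0.02), while 81770 already were. Column names begin with m or p, read here as the minus and plus arms of the titles. Per the submitters' processing notes, the tools were STAR, RSEM, DESeq2, Bowtie2 and MACS2 and the build mm10, with no versions named. The same deposited table holds the authors' call per gene, and the peak list holds start, end and class, with no signal per library. Whether the 3 libraries per group are separate cultures is not stated. Members and gene lists were chosen with earlier results of these data known.

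Peaks were joined to RefSeq gene spans of GRCm38.p6 (13952 of 13957 symbols placed) within 10 kb with Python 3.11.15 and pandas 2.3.3, in scripts tested on simulated data. Differences are log2(TPM + 1), with auxin minus without, averaged over 7 release times, for genes of at least 1 TPM in a group. The planned limma test needs library columns and could not be run. Genes named are the 10 with most dB peaks, the 10 lowest and 10 highest called differences with 1 sign at 7 times, and members of 10 lists; a few are not reported here. Wilson intervals cover counting error only. Alternatives were other windows, linking distances, filters, pseudocounts and scalings. Promoter sequences and gene starts are from a set of RefSeq windows that holds none on chromosome 18.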

Additional observations from a re-analysis of the deposited data

How the results depend on the processing

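The share of dB peaks in runs was 9.11% with linking at 5 kb and 20.1% at 20 kb. The share within the window of a gene was 59.3% for the span alone and 96.5% for 50 kb. The share of genes called lower was 11.999% for 50 kb, 21.0% at 1 TPM or more and 7.54% with dB peaks alone; with 2 or more dB peaks it was 28.8%, and 18.7%, 36.9% and 10.4% under these settings. The share called higher was 6.68% for the span alone, 6.29% at 1 TPM or more and 7.74% with dB peaks alone. Leaving out chromosome 11, added after seeing the data, gave 16.4% lower and 5.47% higher.

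The median auxin difference of -0.00094 was -0.016 with each stage centred, -0.0072 without 30 and -0.0084 without 40 minutes. It turned to 0.00034 with a pseudocount of 0.1, 0.0060 without 20, 0.00059 without 50 and 0.011 without 60 minutes, 0.0016 without a filter, 0.0025 for the span alone and 0.0021 for 50 kb, so its sign is not settled. The median ratio at 60 minutes was 1.39 with a pseudocount of 0.1, 0.59 without a filter and -0.069 after quantile normalization. The motif share was 10.5% for AAGGTCA alone. Among named genes near 0 the sign turned for Cdx2 (0.0062 without 60 minutes), Ncor1 (0.0097, 0.022 and 0.015 without 20, 60 and 90), Nrip1 (-0.012 centred, -0.0014 and -0.0012 without 30 and 40), Tfap2a (-0.0054 centred) and Rif1 (-0.0038 and -0.017 without 30 and 40). The cause was not tested.

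No paired analysis was possible because the table has 1 column per group; the replicate block and leaving out single replicates were not run for the same reason. Depth is unknown, so low levels cannot be bounded.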

Other observations

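The 504 genes whose only peaks within 10 kb were of class dB were also shorter than the rest of the set. Their median span was 20756 bp, against 36708 bp for the 1971 genes that also had another class. Of the 365 with at least 1 TPM, 60.5% exceeded their mitotic level at least 2-fold at 60 minutes without auxin, compared with 45.2% of the genes with another class as well and 50.8% of all. Their median auxin difference after release was 0.018, next to 0.016 over all genes, and 4.66% were lower at all 7 times. Upp1, Idh3a and Bbc3, a p53 target that promotes cell death, belong to these genes, as do Oat and Sub1 at the high end. In mitosis Bbc3 was at 0.565 and 0.645 TPM without and with auxin and at 4.59 and 3.56 TPM at 40 minutes. Gene span and other classes move with these values, and their part was not tested.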
